A study of Mus musculus with 36 samples.

Results

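Mice lacking the sigma-1 receptor were compared with wild-type mice in 2 tissues. These were the dorsal root ganglion (DRG) and the dorsal part of the spinal cord of naive (uninjured) female mice. The contrast was the log2 difference between knockout and wild type in DRG minus the same difference in cord, called the tissue difference here, together with the changes that both tissues shared. It used 20 of the 36 RNA sequencing libraries, 5 in each of 4 groups: wild-type DRG, knockout DRG, wild-type cord and knockout cord, all without treatment. The other 16 libraries, 4 in each matching group, came from mice with spared nerve injury (SNI), in which branches of the sciatic nerve are cut, and served as libraries that the contrast did not use. The knockout was of the whole mouse. The labels gave no strain or age. Loss of the receptor thus cannot be told apart from other genetic differences between the genotype groups, and knockout effect here means the difference between genotypes. Nor did the labels say that each library came from its own animal, so p values measured the spread between libraries, which may be technical.

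The sigma-1 receptor is a chaperone of the endoplasmic reticulum (ER) membrane where it meets mitochondria. It binds the chaperone BiP and inositol trisphosphate receptors, and it modulates ion channels and opioid receptors at the cell surface. DRG holds the cell bodies of sensory neurons among satellite glia, Schwann cells and macrophages, and dorsal cord holds the spinal neurons and glia on which those sensory neurons end.

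Each library held 21.34 to 27.27 M estimated reads. Levels are given as CPM, the reads of a gene scaled to library size, and naive libraries are always listed in the order A1, A3, B1, B3 and C1 for wild-type DRG, A2, A4, B2, B4 and C2 for knockout DRG, A5, A7, B5, B7 and C5 for wild-type cord, and A6, A8, B6, B8 and C6 for knockout cord. A2 and A4 are wild type by title and knockout by genotype field, and were used as knockout. Markers fitted the tissues: the sensory neuron gene Avil averaged 516 and 702 CPM in the DRG groups and 0.489 and 0.285 in the cord groups, and the oligodendrocyte gene Mog averaged 0.238 and 0.211 CPM in DRG and 254 and 245 in cord.

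Wild-type DRG libraries A1, A3 and C1 lay farthest from the knockout libraries. On the first principal component of the DRG libraries (57.4% of the variance over 16266 genes) they scored -21.5, -34.9 and -39.1. Wild-type B1 and B3 scored -7.4 and -11, and the knockout libraries scored 15.7 to 30.4. A1 was the least distinct. Its mean chi-square per gene was 13.9 against B1 and 14.3 against B3, and 13.4 against A3 and 22.8 against C1. Summed CPM of the 6 haemoglobin and red cell genes was 1540, 1550, 727, 896 and 3500 in wild-type DRG and 187, 417, 536, 601 and 316 in knockout DRG, without overlap. In cord the same sum ran from 175 to 500 CPM in wild type and from 139 to 175 in knockout. Of these red cell genes 6 of 6 fell in DRG and 4 of 5 fell in cord, and 0 of 6 were called in the tissue difference. Hba-a1, a haemoglobin subunit, stood at 768, 720, 349, 429 and 1620 CPM in wild-type DRG and at 91.0, 193, 255, 290 and 157 in knockout DRG. In bulk tissue, fewer cells of a type and less RNA per cell cannot be told apart. How far the blood genes and these 3 libraries account for the differences below was not tested. Counts of tissue differences in the gene lists are therefore given with and without the 3 libraries. Leaving out the 3 keeps only B1 and B3 in wild-type DRG, so calls can also be lost to fewer libraries.

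The tissue difference was called (edgeR quasi-likelihood F test, Benjamini-Hochberg adjusted p under 0.05) for 4266 of 19599 genes tested, or 21.8%. It was positive, meaning a higher knockout effect in DRG than in cord, for 2526 genes (12.9%) and negative for 1740 (8.88%). List counts of tissue differences from all 20 libraries are to be set against these shares. The typical called difference was small, with a median size of 0.43 on the log2 scale, and 452 called genes passed 1, of which 92 were positive and 360 negative. Most called genes, 3942, had a mean of at least 1 CPM in both tissues. Without A1, A3 and C1 the count was 1380 (774 positive, 606 negative), of which 1274 were among the 4266. List counts without the 3 libraries are to be set against this smaller count, not against the shares above. All 4266 kept their sign, but both fits share the other libraries, so this is no separate support. With the haemoglobin level of each library as a covariate the count was 33.

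Each tissue was also fitted alone. In DRG 5892 of 18329 genes were called (32.1%), 3020 higher in knockout (16.5%) and 2872 lower (15.7%). In cord 3125 of 17992 were called (17.4%), 1588 higher (8.83%) and 1537 lower (8.54%). Counts of list genes called within a tissue, from all its libraries, are to be set against these shares. DRG list counts without A1, A3 and C1 belong to a fit with only 1419 calls. Among the called tissue differences the most frequent pattern was a rise in DRG with no call in cord, in 1602 genes. A fall in DRG with no call in cord made up 727. Changes called in cord alone were fewer, with 405 genes higher and 287 lower there. Single libraries moved these counts: DRG gave 3711 without A2, 3723 without A3, 2990 without A2 and A4, and 1419 without A1, A3 and C1, and cord gave 1946 without A6.

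**Figure D1:**
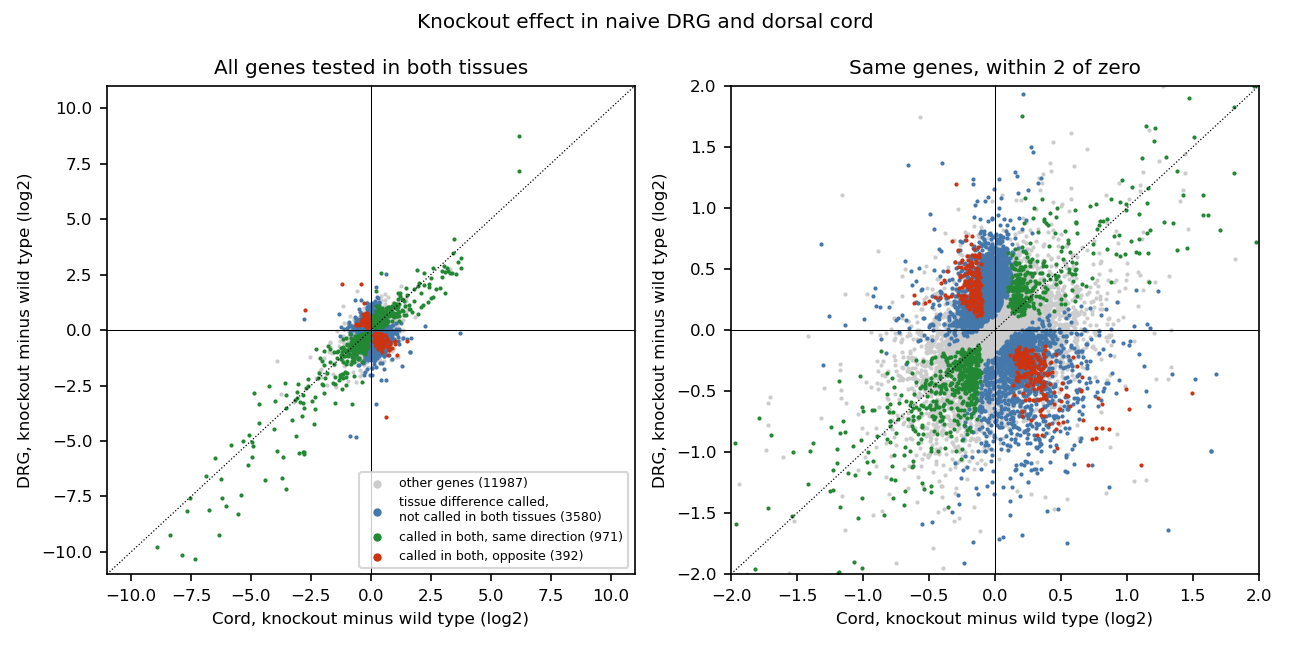
Knockout effect (log2, knockout minus wild type) in cord on the horizontal axis and in DRG on the vertical axis, 1 point per gene tested in both tissues, with all genes on the left and the range within 2 of zero on the right. The dotted line marks equal effects. The 971 genes called in both tissues with the same direction (green) lie in the quadrants of equal sign by definition. Genes called in the tissue difference but not in both tissues (blue) spread mainly up and down, along the DRG axis. The 392 genes called in opposite directions are red.

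The knockout effects in DRG and cord had a correlation of 0.642 across the 16930 genes tested in both, a description over genes, which are not independent replicates. Over the 14721 genes whose effects were below 1 in size in both tissues, with at least 1 CPM in each, it was 0.145. The genes with large changes in both tissues, which the second value leaves out, are described at the end.

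Genes of synaptic vesicles and their release machinery differed most evenly between tissues. Of 13 measured genes 12 had a called positive tissue difference and 0 a negative one, with a median of 0.54 against -0.003 over all genes. All 12 rose in DRG (median 0.52), and 0 of 13 were called in cord (median -0.07). The exception, Stx1a, had a tissue difference of 0.11 (adjusted p = 0.506). Without A1, A3 and C1 the positive calls were 8 of 13 (median 0.32), and 5 of 13 rose in DRG. In SNI libraries 0 of 13 were called in the tissue difference (median 0.19), where only 0.398% of all genes were called.

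Restriction of neuronal genes to neurons depends in part on the repressor REST, which binds an element named RE1. The letters CAGCACC, which begin the RE1 element, were searched on both strands of the 250 bases before the start of each gene in RefSeq promoter sequences (GRCm38.p6), to show what 2 of the genes that moved together share. They were present for 2 of the 11 vesicle genes with an entry, Syn1 and Sv2c, for 2 of 10 macrophage genes, C1qb and C1qc, and for 6.56% of all 27025 genes. The letters GGACAG, from the second part of the element, were present for 1 of the 11 vesicle genes (5668 of all 27025), and 0 of the 11 held both (1.40% of all). Both stretches are given 5′ to 3′ on the gene's strand, with the match in capitals. The Syn1 stretch is chrX:20921068-20921168 and the Sv2c stretch is chr13:96132619-96132698, both on the minus strand. A match is a description of the letters and says nothing about binding.
Syn1: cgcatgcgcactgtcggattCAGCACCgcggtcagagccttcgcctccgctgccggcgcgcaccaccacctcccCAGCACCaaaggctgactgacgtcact
Sv2c: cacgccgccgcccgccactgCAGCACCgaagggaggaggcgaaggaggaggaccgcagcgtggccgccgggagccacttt

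Syn1, which tethers vesicles to actin and holds 2 copies of those letters, stood at 82.2, 72.2, 121, 118 and 57.1 CPM in wild-type DRG and at 153, 118, 131, 126 and 148 in knockout DRG. Its cord values were 322, 354, 318, 315 and 311 in wild type and 297, 283, 323, 300 and 309 in knockout. The low wild-type DRG values were those of A1, A3 and C1, while B1 and B3 lay within the knockout range. Its difference between tissues was 0.69 ± 0.21 (adjusted p = 0.0257), and without the 3 libraries it was 0.28 (adjusted p = 0.109). Sv2c, a vesicle glycoprotein, had a DRG mean of 525 ± 128 CPM (SD) in wild type and 783 ± 39.4 in knockout, and a cord mean of 472 ± 24.6 and 495 ± 28.8. Its tissue difference of 0.51 ± 0.16 (adjusted p = 0.027) was 0.22 without the 3 libraries (adjusted p = 0.107).

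Sv2a, the glycoprotein bound by levetiracetam, kept its call without them. It stood at 32.5, 26.3, 37.7, 33.3 and 24.1 CPM in wild-type DRG and at 56.3, 41.8, 46.1, 48.1 and 52.0 in knockout DRG, without overlap. Cord libraries held 522, 536, 495, 522 and 499 CPM in wild type and 517, 505, 539, 497 and 531 in knockout, which overlapped. This gave a tissue difference of 0.66 ± 0.13 (adjusted p = 0.00156), and 0.45 without the 3 libraries (adjusted p = 0.0113). The complexins Cplx1 and Cplx2, which clamp fusion, had differences of 0.66 and 0.72.

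General neuronal genes moved likewise: 9 of 12 had a positive call and 0 a negative one (median 0.43), with 9 of 12 higher in DRG and 1 higher and 2 lower in cord. Without A1, A3 and C1, 5 of 12 were called (median 0.21). Snap25, a membrane fusion protein, stood at 947, 946, 1040, 1030 and 882 CPM in wild-type DRG and at 1290, 1110, 1160, 1160 and 1210 in knockout DRG. Its cord values of 2650, 3190, 2780, 2730 and 2680 in wild type lay above the knockout values of 2390, 2420, 2460, 2450 and 2590. Snap25 thus rose in DRG (0.29 ± 0.06) and fell in cord (-0.18 ± 0.05), and both pairs of groups were free of overlap. Its tissue difference of 0.48 ± 0.08 (adjusted p = 0.00066) was 0.39 without the 3 libraries (adjusted p = 0.00679). The DRG rise of Snap25 without them was 0.20 and not called (adjusted p = 0.0652). The neurofilament genes Nefl and Nefh had differences of 0.65 and 0.79. In SNI libraries 0 of 12 were called in the tissue difference (median 0.04), against 0.398% of all genes.

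**Figure D2:**
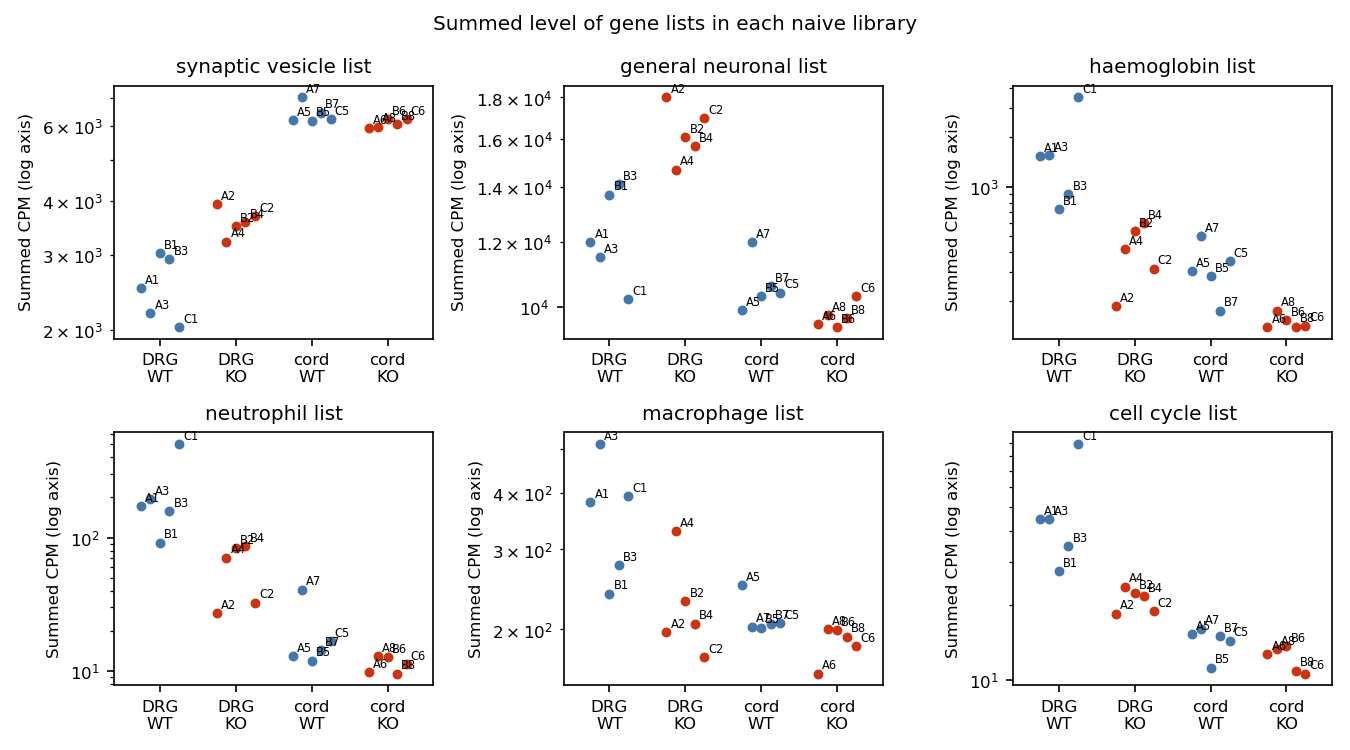
Summed CPM (log axis) of 6 gene lists in each naive library, wild type in blue and knockout in red, with library names beside the points. In DRG the vesicle and neuronal sums are lowest, and the haemoglobin, neutrophil, macrophage and cell cycle sums highest, in A1, A3 and C1; the haemoglobin sum spans 727 to 3500 CPM in wild-type DRG and 187 to 601 in knockout DRG, and the cord groups lie much closer together.

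Voltage-gated sodium channel genes split. Of 11 tested, 5 had a positive and 3 a negative call (median 0.59), and without A1, A3 and C1 the calls were 2 and 2. Scn2b, the beta 2 subunit that speeds and anchors the channel, differed most clearly. It stood at 17.1, 15.4, 22.5, 22.5 and 11.8 CPM in wild-type DRG and at 46.3, 40.8, 43.0, 47.1 and 33.1 in knockout DRG. In cord its values were 160, 162, 157, 163 and 154 in wild type and 160, 160, 164, 164 and 158 in knockout. All 5 knockout DRG libraries exceeded all wild-type ones, and the cord groups covered the same range. The tissue difference was 1.22 ± 0.17 (adjusted p = 0.000194), 0.89 without the 3 libraries (adjusted p = 0.000103) and 0.94 ± 0.13 in SNI libraries (adjusted p = 0.00142). The alpha subunit genes Scn2a and Scn9a had negative tissue differences (-0.52 and -0.45); Scn2a fell in DRG (-0.31) and rose in cord (0.23). Scn10a, the alpha subunit of nociceptors, had a fitted difference of 3.24 (adjusted p = 0.0391), but its cord levels averaged only 0.376 and 0.0453 CPM, and its DRG rise was 0.35.

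Of 16 potassium channel genes 4 were positive and 2 negative (median 0.20), and 1 and 1 without A1, A3 and C1 (median 0.08). Over all genes tested 12.9% were positive and 8.88% negative. Without the 3 libraries 774 genes were positive and 606 negative. Kcnc1, which carries a fast delayed rectifier current, had a difference of 0.72, and the sodium-activated channel gene Kcnt1 had one of -0.27, with no call in DRG (0.01) and a rise in cord (0.29). Glutamate receptor genes split as well, with 2 positive and 3 negative calls among 11, and 0 and 1 without the 3 libraries. Grin1, the obligatory subunit of NMDA receptors, was positive (0.49, adjusted p = 0.0178), and Gria2, an AMPA receptor subunit, was negative (-0.35, adjusted p = 0.00552). Of 12 nociceptor genes 0 were positive and 2 negative, with 5 lower and 1 higher in DRG and 0 of 7 called in cord. Unlike most lists, this one had more calls without the 3 libraries, 3 negative in the tissue difference and 6 lower and 1 higher in DRG. Touch or proprioceptor genes gave 2 positive and 1 negative call of 10, with the same counts without the 3 libraries. Ntrk3, the receptor for neurotrophin-3, fell in DRG (-0.25) and rose in cord (0.34), a difference of -0.57 (adjusted p = 7.34e-05).

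Neutrophil, cell cycle and macrophage genes fell in DRG in larger shares than the 15.7% of all genes, yet few differed between tissues by test. Chemokine and cytokine genes (5 of 11 lower, 0 higher) and microglia genes (8 of 14 lower, 0 higher) also fell in DRG in larger shares. Other immune lists did not: in DRG 1 of 8 B cell genes fell and 1 rose, and 1 of 7 MHC class II genes fell. Of 12 interferon response genes 1 fell and 1 rose. Only 2 T cell genes were tested in DRG, of which 1 fell. Of 12 neutrophil genes 11 fell in DRG (median -1.89), and 1, the protease gene Mmp9, had a called tissue difference. Of 10 cell cycle genes 10 fell in DRG (median -1.09), 0 of 8 were called in cord, and 2 were called in the tissue difference, Ccnb2 and Cdk1. Macrophage genes gave 9 of 18 lower in DRG, 2 of 17 lower in cord and 2 of 18 called in the tissue difference. Without A1, A3 and C1, 0 neutrophil, cell cycle or macrophage genes were called in the tissue difference, and 1 neutrophil, 2 cell cycle and 0 macrophage genes were called in DRG. In SNI libraries 0 genes of the 3 lists were called in the tissue difference, against 0.398% of all genes.

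Mki67, a protein of dividing cells, stood at 16.2, 15.8, 7.53, 11.7 and 36.4 CPM in wild-type DRG and at 3.55, 5.61, 6.33, 5.59 and 4.55 in knockout DRG. Levels in cord were 3.11, 3.04, 1.82, 2.70 and 2.76 in wild type and 2.22, 2.21, 2.17, 1.59 and 1.42 in knockout. Its tissue difference of -1.29 ± 0.48 was not called (adjusted p = 0.0639). Csf1r, the receptor that macrophages and microglia need to live, stood at 45.1, 57.2, 33.4, 33.5 and 50.4 CPM in wild-type DRG and at 25.9, 32.6, 27.7, 25.4 and 20.3 in knockout DRG. Its cord values were 87.4, 75.8, 74.0, 77.3 and 77.2 in wild type and 66.4, 78.1, 72.7, 75.7 and 77.5 in knockout. The DRG groups of Csf1r did not overlap, but B1 and B3 lay within 1 CPM of the highest knockout library. Its difference of -0.65 ± 0.18 (adjusted p = 0.0169) became -0.26 without the 3 libraries (adjusted p = 0.276).

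The microglia list, most of whose genes DRG macrophages also express, had 4 negative and 1 positive call among 14 (median -0.50), and 1 of each without A1, A3 and C1 (median -0.06). Fcrls fell in DRG (-0.50) and rose in cord (0.66), and Trem2, a lipid receptor of phagocytes, fell in both (-1.45 and -0.35). Of 9 endothelial genes 4 had a negative and 0 a positive call (median -0.27). They included Tek and Tie1, receptors of the angiopoietin pathway, at -0.74 and -0.56, both lower in DRG (-0.57 and -0.45) and not called in cord (0.18 and 0.13). Without A1, A3 and C1, 0 of 9 endothelial genes were called (median -0.20).

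Glial lists showed calls in both directions of effect. Of 11 astrocyte and satellite glia genes 4 were positive and 1 negative, and 4 and 0 without A1, A3 and C1. Aqp4, the water channel of astrocyte end feet, stood at 10, 8.41, 10.8, 8.52 and 8.31 CPM in wild-type DRG and at 16.6, 15.9, 15.4, 16.4 and 15.7 in knockout DRG. Its cord values were 781, 707, 753, 684 and 821 in wild type and 739, 701, 692, 721 and 758 in knockout. The knockout DRG libraries were all above the wild-type ones, and the cord groups overlapped. The tissue difference of 0.85 ± 0.09 (adjusted p = 1.41e-05) was 0.78 without the 3 libraries (adjusted p = 0.00026) and 0.61 ± 0.14 in SNI libraries (adjusted p = 0.0657). S100b, a glial calcium-binding protein, had a positive difference (0.55) that came with a fall in cord (-0.48) and no call in DRG (0.05). Fabp7, the fatty acid binding protein of satellite glia, fell in DRG (-0.56) and was not called in cord (0.16).

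Of 11 Schwann cell genes 3 were positive and 0 negative (median 0.64), with 2 higher and 1 lower in DRG and 3 lower in cord. Their summed level in wild type was higher in cord (median 14050 CPM) than in DRG (7089), so the list does not mark Schwann cells alone. The fit that left out A1, A3 and C1 called 0 of 11 in the tissue difference, at the same median of 0.64, and 0 in DRG. Ngfr, the p75 neurotrophin receptor, had a difference of 1.07 and rose in DRG (0.65). The myelin gene Pmp22 was at 0.64 without a call (adjusted p = 0.141). Oligodendrocyte genes gave 0 positive and 1 negative call of 11, with a median of 0.02, and 0 calls without the 3 libraries.

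Genes near the receptor's own functions were measured as well. Of 15 genes of ER calcium stores and contact sites with mitochondria 6 were positive and 2 negative, against 12.9% and 8.88% of all genes, with 8 higher and 3 lower in DRG. Leaving out A1, A3 and C1 left 2 positive and 2 negative tissue differences (median 0.01) and 1 call in DRG. Itpr2, an inositol trisphosphate receptor, stood at 9.75, 13, 8.67, 10.8 and 16.5 CPM in wild-type DRG and at 6.50, 8.11, 8.54, 7.61 and 6.53 in knockout DRG. Measured in cord, it stood at 35.1, 34.1, 36.4, 34.3 and 36.1 CPM in wild type and at 40.0, 38.1, 39.2, 41.3 and 41.9 in knockout. It fell in DRG (-0.66 ± 0.17) and rose in cord (0.20 ± 0.04), without overlap in either tissue. Its difference between tissues was -0.84 ± 0.17 (adjusted p = 0.00197), and -0.57 without A1, A3 and C1 (adjusted p = 0.0054). The DRG fall of Itpr2 without those libraries was -0.38 and not called (adjusted p = 0.119). In SNI libraries its tissue difference was -0.75 ± 0.23 and not called (adjusted p = 0.256). The calcium pump gene Atp2a2 and the mitofusin gene Mfn2 had differences of 0.61 each, both with a rise in DRG (0.59 and 0.50) and no call in cord.

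Oprm1, the mu opioid receptor, whose signalling sigma-1 receptors are known to restrain, stood at 15.5, 15.8, 11.7, 13.7 and 13 CPM in wild-type DRG and at 7.63, 9.67, 7.94, 9.80 and 7.79 in knockout DRG. In the cord libraries it stood at 6.57, 5.90, 8.03, 7.68 and 8.78 CPM in wild type and at 11, 7.69, 8.59, 9.64 and 10.4 in knockout. It fell in DRG (-0.70 ± 0.11, adjusted p = 0.00114), where all knockout libraries were below all wild-type ones. It rose in cord (0.37 ± 0.12, adjusted p = 0.0392), where the groups overlapped. This gave a tissue difference of -1.06 ± 0.17 (adjusted p = 0.000377), -0.93 without A1, A3 and C1 (adjusted p = 0.00536) and -0.55 ± 0.23 in SNI libraries (adjusted p = 0.481). Hspa5, which encodes BiP, averaged 340 and 341 CPM in DRG and 357 and 345 in cord, with a difference of 0.05 (adjusted p = 0.833). The sigma-2 receptor gene Tmem97 fell in DRG (-0.26) and was at -0.20 in cord (adjusted p = 0.0538).

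Cholesterol synthesis genes had 5 positive and 0 negative calls among 15, against 12.9% and 8.88% of all genes. In cord 7 of 15 fell and 0 rose, against 8.54% and 8.83% of all genes. In DRG 3 of 15 rose, near the 16.5% of all genes, and 0 fell, against 15.7%. Insig1, which retains the sterol sensor in the ER, stood at 91.3, 78.7, 97.1, 101 and 93.4 CPM in wild-type DRG and at 116, 94.9, 103, 94.9 and 102 in knockout DRG. In cord it stood at 167, 175, 164, 144 and 141 CPM in wild type and at 112, 110, 136, 133 and 128 in knockout, without overlap. The cord fall was -0.34 ± 0.08, the DRG value 0.15 ± 0.07 was not called (adjusted p = 0.134), and the tissue difference was 0.50 ± 0.11 (adjusted p = 0.00358). Without A1, A3 and C1 that difference was 0.40 (adjusted p = 0.0511), and 1 of the 15 genes was called.

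**Figure D3:**
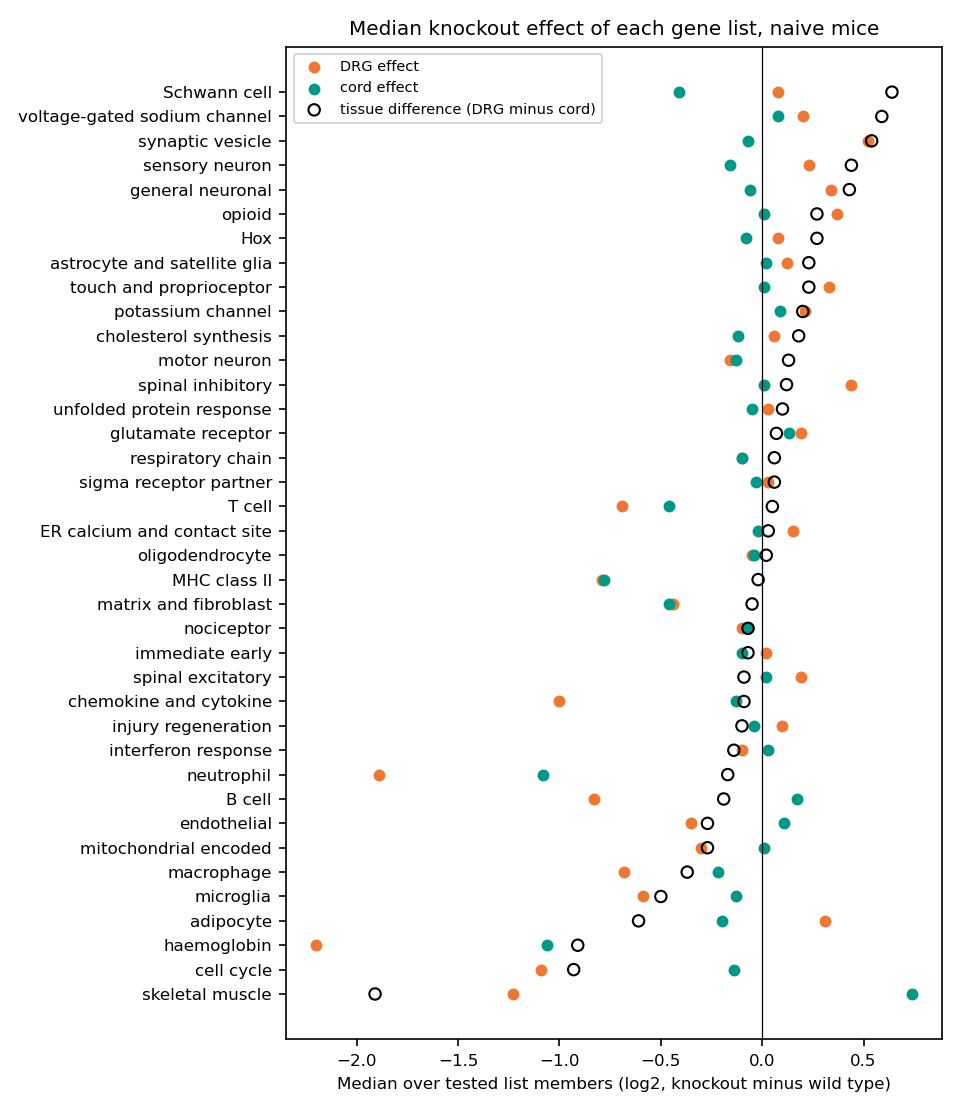
Median knockout effect over the tested members of each of the 38 gene lists (log2, knockout minus wild type) in DRG (orange) and cord (green), and the median tissue difference (open circles), sorted by the last. The vesicle list has medians of 0.52 in DRG, -0.07 in cord and 0.54 for the tissue difference, and the haemoglobin list -2.20, -1.06 and -0.91; lists with few expressed members, such as skeletal muscle, rest on low counts.

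Counts of the remaining lists stand against 12.9% positive and 8.88% negative calls over all genes. Among these lists, 16 unfolded protein response genes gave 2 positive calls and 0 negative ones (median 0.10), including the chaperone gene Dnajb9 at 0.29. Respiratory chain genes encoded in the nucleus gave 4 of 19 positive, and 2 of 13 mitochondrial genes were negative. Interferon response genes gave 1 negative call of 12, MHC class II genes 1 of 7, chemokine and cytokine genes 1 of 11 and spinal excitatory genes 1 of 10. Both directions were called among sensory neuron (1 positive and 1 negative of 9), opioid (2 and 1 of 8), sigma receptor partner (3 and 1 of 13) and injury or regeneration genes (3 and 1 of 13), and immediate early genes gave 2 positive of 11. Lists of T cell (3 tested), B cell (8), spinal inhibitory (12), motor neuron (6), matrix and fibroblast (12), skeletal muscle (7) and adipocyte genes (6) gave 0 calls in the tissue difference. Hox genes, which set position along the body axis, gave 4 positive calls and 1 negative of 13. Hoxd10 was the negative one (-0.86), at 1.64 and 0.829 CPM in DRG and 39.4 and 35.8 in cord.

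Most of these calls were lost without A1, A3 and C1, in a fit with only B1 and B3 in wild-type DRG. Hox genes then gave 0 positive calls and 1 negative, respiratory chain genes 2 positive, and sensory neuron genes 1 negative. Opioid, sigma receptor partner and injury or regeneration genes each gave 0 positive and 2 negative calls. The unfolded protein response, mitochondrial, interferon response, MHC class II, chemokine and cytokine, spinal excitatory and immediate early lists gave 0 calls. Spinal inhibitory genes gave 1 negative call, and the other lists with 0 calls stayed at 0.

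In SNI libraries the tissue difference was called for 79 of 19869 genes (0.398%). Of the 4266 naive calls, 4253 were tested there, 3818 (89.8%) had the same sign, 62 were called with the same sign and 0 with the opposite sign. The share with the same sign over all genes was not computed, so 89.8% cannot be read as particular to the called genes. These 62 genes were 78.5% of the SNI calls and 1.45% of the naive calls, and 38 were positive and 24 negative. All 62 kept their sign in naive libraries without A1, A3 and C1, a fit that shares the other libraries, and 44 kept their call. They were chosen here for being called in both sets, so their size in SNI libraries is a description.

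**Figure D4:**
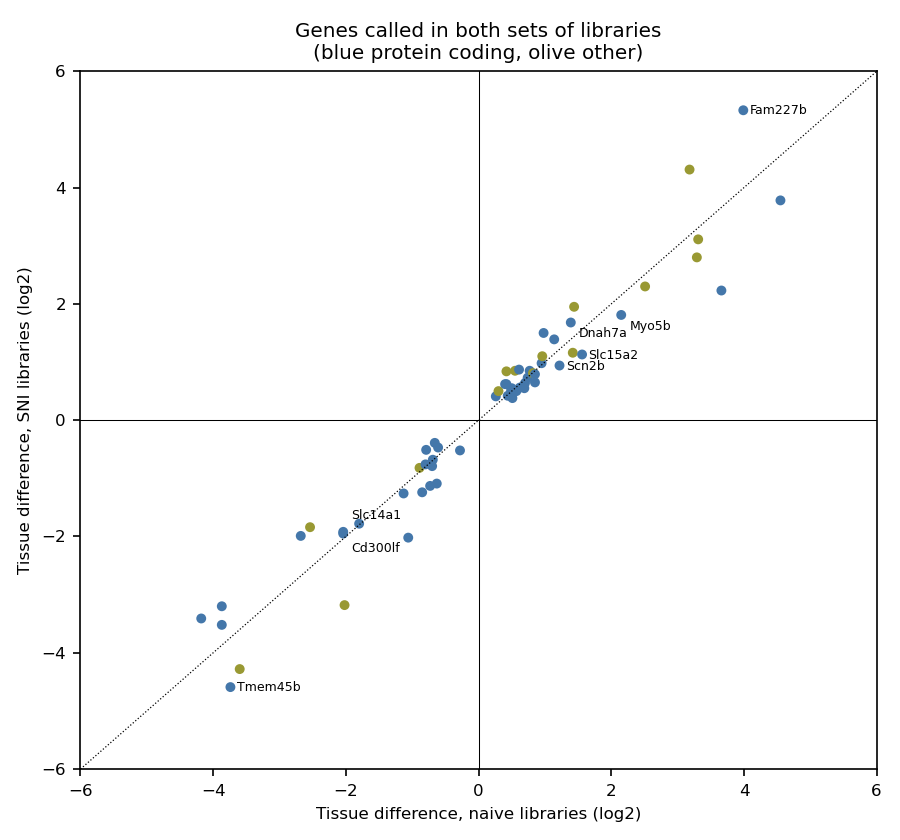
Tissue difference (log2) in naive libraries on the horizontal axis and in SNI libraries on the vertical axis for the 62 genes called in both with the same sign, protein-coding genes in blue and others in olive, with the dotted line marking equal values. All 62 points lie in the quadrants of equal sign, with Tmem45b at -3.74 and -4.59 and Fam227b at 3.99 and 5.33.

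In 10 of the 62 genes the naive rise was called in DRG and not in cord, and in 4 it was called in both tissues. Myo5b, a myosin motor that carries recycling vesicles (chromosome 18, 74440936 to 74771493), rose in both tissues. It stood at 1.72, 1.1, 3.42, 1.85 and 2.09 CPM in wild-type DRG and at 12.5, 11.6, 11.2, 12.7 and 12.2 in knockout DRG. Its cord levels were 13.8, 12.5, 13.9, 12.7 and 13.7 CPM in wild type and 17.2, 17.2, 17.2, 19.3 and 16.8 in knockout. The gap between genotypes was wide in DRG and narrow in cord, and neither tissue showed overlap. The rise was 2.55 ± 0.21 in DRG and 0.41 ± 0.06 in cord, and the tissue difference of 2.15 ± 0.20 (adjusted p = 4.46e-06) was 1.77 without A1, A3 and C1 (adjusted p = 4.93e-06). In SNI libraries it was 1.81 ± 0.19, with group means of 1.70 and 7.01 CPM in DRG.

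Slc15a2, a transporter of small peptides (chromosome 16, 36750177 to 36784962), also rose in both. It stood at 14.4, 13.8, 11.8, 10.8 and 20 CPM in wild-type DRG and at 43.7, 66.2, 40.3, 49.9 and 40.3 in knockout DRG. Cord libraries held 51.1, 48.4, 52.1, 49.9 and 53.8 CPM in wild type and 61.1, 64.3, 51.5, 61.2 and 53.6 in knockout. The DRG groups were far apart, and the cord groups overlapped. The tissue difference was 1.56 ± 0.20 (adjusted p = 0.000129), 1.89 without the 3 libraries (adjusted p = 0.000226) and 1.13 ± 0.20 in SNI libraries.

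Among receptors, Chrm2, the M2 muscarinic acetylcholine receptor, stood at 15.2, 14.4, 13.2, 19.6 and 14.2 CPM in wild-type DRG and at 25.5, 25.7, 29.1, 27.2 and 24.6 in knockout DRG. Its cord values were 73.4, 79.0, 77.0, 80.4 and 78.0 in wild type and 86.0, 82.1, 77.8, 83.0 and 82.5 in knockout. The DRG groups were separate and the cord groups overlapped. The tissue difference of 0.70 ± 0.10 (adjusted p = 0.000194) was 0.62 without the 3 libraries and 0.64 ± 0.08 in SNI libraries. Tacr3, the neurokinin B receptor, had differences of 0.61 (naive) and 0.87 (SNI), and Negr1, a neuronal adhesion protein, 0.49 and 0.51.

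In 12 of the 62 genes the fall was called in DRG and not called or not tested in cord. Slc14a1, a urea transporter (chromosome 18, 78100091 to 78142119), stood at 6.43, 8.20, 12, 9.42 and 7.34 CPM in wild-type DRG and at 2.30, 1.47, 2.81, 2.37 and 1.76 in knockout DRG. Its cord values were 35.7, 31.6, 38.0, 32.4 and 30.8 in wild type and 32.3, 31.8, 34.1, 36.5 and 36.7 in knockout. The gene fell about as far with or without A1, A3 and C1: the tissue difference was -2.04 ± 0.20 (adjusted p = 1.01e-05) with them and -2.34 without (adjusted p = 4.23e-07). In SNI libraries it was -1.92 ± 0.14, with DRG means of 13.4 and 4.70 CPM.

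Tmem45b, a membrane protein gene (chromosome 9, 31426196 to 31464462), stood at 100, 123, 157, 97.6 and 131 CPM in wild-type DRG and at 7.83, 10.7, 9.34, 9.94 and 9.18 in knockout DRG. In cord no library exceeded 0.408 CPM, and the group means were 0.179 and 0.183. Its tissue difference therefore rested on a gene that cord hardly expressed. The DRG fall was -3.70 ± 0.14 (adjusted p = 3.91e-08), and -3.76 without the 3 libraries.

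Genes that mark vessels and their progenitors, or immune cells, were among the falls in DRG. Cd34, a sialomucin of endothelium and fibroblasts, stood at 119, 114, 93.9, 93.2 and 103 CPM in wild-type DRG and at 59.9, 68.5, 70.9, 68.4 and 72.5 in knockout DRG. Levels in cord were 14.9, 12.6, 13.3, 11 and 13.8 CPM in wild type and 14.7, 13.7, 15.7, 13.8 and 16.3 in knockout. The DRG groups did not overlap, and B1 and B3 lay above every knockout library. Its tissue difference was -0.80 ± 0.12 (adjusted p = 0.000194), -0.64 without A1, A3 and C1 (adjusted p = 0.0016) and -0.76 ± 0.13 in SNI libraries. Ly6a, which encodes the stem cell antigen Sca-1, had differences of -1.06 (naive) and -2.02 (SNI). The endothelial genes Aplnr, the apelin receptor, and Slco1c1, a thyroid hormone transporter, were at -0.70 and -0.79, and at -0.73 and -1.13. The RNA sensor gene Tlr13 was at -1.13 and -1.26.

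A change called in cord and not called or not tested in DRG was found in 13 of the 62, 9 lower and 4 higher. Dnah7a, a dynein of motile cilia, stood at 1.72, 1.99, 1.68, 2.07 and 2.40 CPM in wild-type DRG and at 1.82, 2.05, 2.36, 2.33 and 2.16 in knockout DRG. Its cord values were 6.26, 4.93, 6.17, 8.39 and 5.08 in wild type and 2.73, 2.67, 2.40, 2.52 and 2.43 in knockout. The fall was seen in every knockout cord library. The cord change was -1.26 ± 0.14 (adjusted p = 1.37e-05), the DRG value 0.12 ± 0.14 was not called (adjusted p = 0.555), and the tissue difference was 1.39 ± 0.20 (adjusted p = 0.000194) and 1.68 ± 0.26 in SNI libraries.

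Sri, which encodes the ryanodine receptor regulator sorcin, stood at 118, 122, 120, 122 and 118 CPM in wild-type DRG and at 109, 115, 116, 126 and 116 in knockout DRG. Measured in cord, it stood at 68.6, 70.5, 66.9, 68.6 and 55.8 CPM in wild type and at 43.3, 42.8, 45.8, 46.4 and 46.7 in knockout. The cord groups did not overlap, with a fall of -0.54 ± 0.05, and the DRG groups did. Its difference between tissues was 0.51 ± 0.08 (adjusted p = 0.000198) and 0.38 ± 0.07 in SNI libraries. Matn2, a matrix adaptor protein, fell in cord from 25.2 ± 3.55 to 15.3 ± 2.39 CPM (SD) and was not called in DRG (152 ± 12.6 and 166 ± 9.86). Its tissue difference was 0.85 ± 0.14 (adjusted p = 0.000451) and 0.79 ± 0.12 in SNI libraries.

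Cd300lf, an inhibitory receptor of myeloid cells, went the other way in cord. It stood at 0.311, 0.553, 0.318, 0.914 and 0.312 CPM in wild-type cord and at 2.36, 2.21, 2.31, 2.70 and 1.97 in knockout cord. In DRG it stood at 1.43, 1.91, 1.11, 1.33 and 3.44 CPM in wild type and at 2.22, 2.49, 2, 2.55 and 1.40 in knockout. The cord rise was 2.25 ± 0.25 without overlap, the DRG groups overlapped, and the tissue difference was -2.04 ± 0.42 (adjusted p = 0.00253) and -1.95 ± 0.36 in SNI libraries.

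Fam227b, a gene of poorly known function, fell in cord from 13.9, 12.8, 3.90, 15.7 and 16.5 CPM to 0.0471, 0.0921, 0.185, 0.663 and 0.458. Wild-type library B5 was low among its group but still above every knockout library. DRG levels were low in all libraries, with means of 0.351 and 0.127 CPM, and fell below the filter of the DRG fit. They too were lower in knockout, at 0.0895 to 0.2 CPM against 0.285 to 0.528 in wild type, without overlap. The cord fall is therefore not shown to be particular to cord. The tissue difference of 3.99 ± 0.98 (adjusted p = 0.00809) lost its call without A1, A3 and C1 (4.24, adjusted p = 0.066), while the cord fall of -5.38 ± 0.60 does not involve these libraries.

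**Figure D5:**
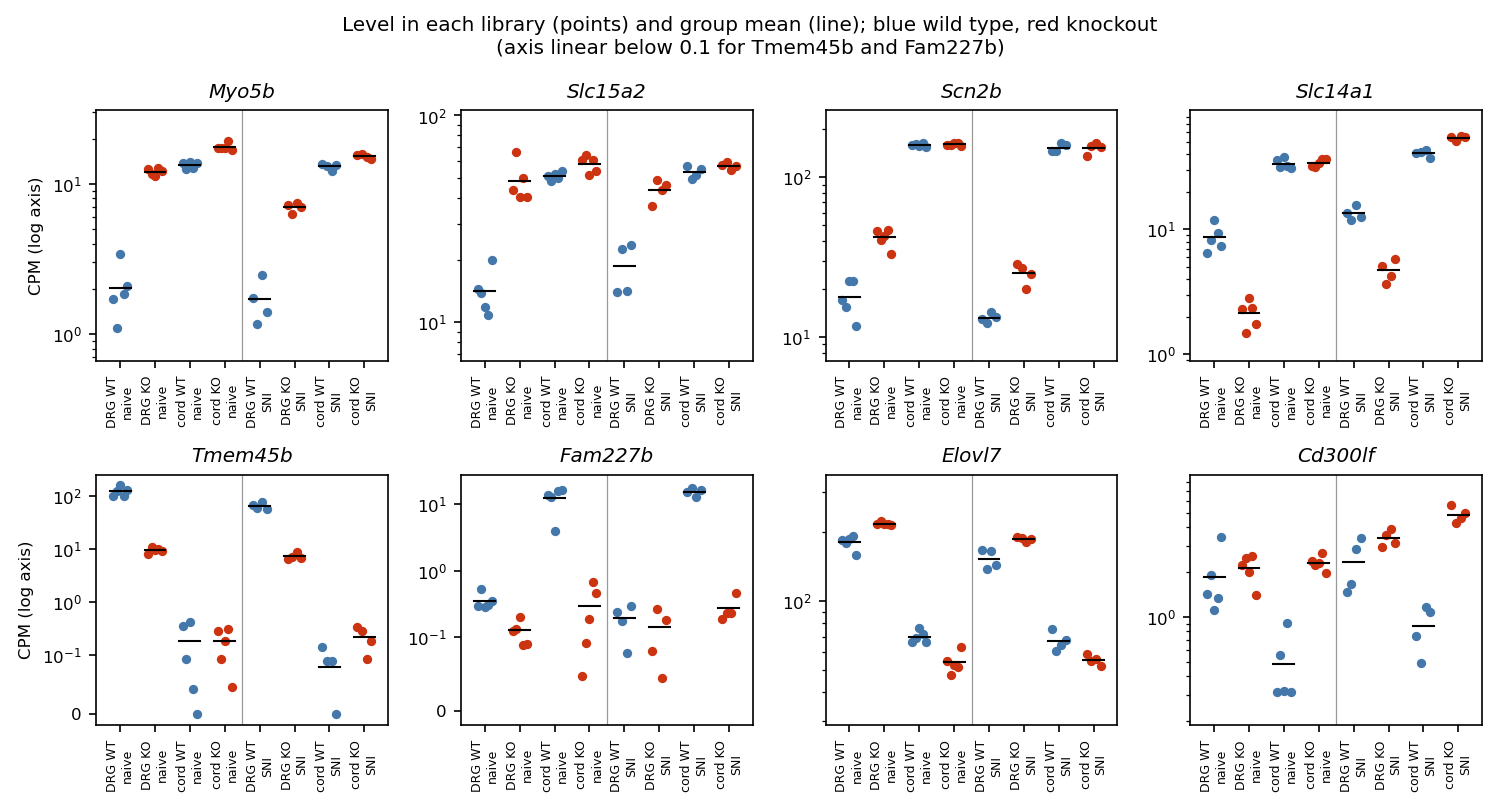
CPM in each library (points; log axis, linear below 0.1 for Tmem45b and Fam227b) and group mean (lines) for 8 genes called in both sets, with naive libraries left and SNI libraries right of the grey line, wild type blue and knockout red. Myo5b, Slc15a2 and Scn2b are higher and Slc14a1 and Tmem45b lower in knockout DRG with smaller differences in cord. Cd300lf differs in cord, and Fam227b differs in cord and, at low levels, in naive DRG. Elovl7 is higher in knockout DRG and lower in knockout cord.

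Genes called in both tissues with opposite directions numbered 392 of 16930 tested in both (2.32%), which was 6.65% of the DRG calls and 12.5% of the cord calls, and all 392 were called in the tissue difference. Of these, 190 rose in DRG and fell in cord, and 202 fell in DRG and rose in cord. Elovl7, which elongates fatty acids, stood at 185, 180, 187, 193 and 159 CPM in wild-type DRG and at 218, 223, 217, 218 and 215 in knockout DRG. In cord it stood at 66.2, 69.4, 76.3, 71.6 and 66.2 CPM in wild type and at 54.7, 47.8, 52.9, 51.5 and 63.4 in knockout. These shifts were modest in size and free of overlap in both tissues. The tissue difference was 0.65 ± 0.09 (adjusted p = 0.000129), and 0.57 both without A1, A3 and C1 and in SNI libraries. Endod1, an endonuclease domain gene, was higher in DRG (0.53) and lower in cord (-0.20).

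Got2, the mitochondrial aspartate aminotransferase, rose in DRG (0.77 ± 0.12) and fell in cord (-0.22 ± 0.04), with a tissue difference of 1.00 ± 0.14 (adjusted p = 0.000173). Its processed copy Got2-ps1 stood at 0 CPM in 4 wild-type DRG libraries and 0.0861 in the fifth, and at 10.5, 7.89, 8.82, 8.50 and 8.28 in knockout DRG. In cord that copy stood at 0.133, 0.184, 0, 0.125 and 0 CPM in wild type and at 6.41, 7, 6.69, 7.25 and 6.05 in knockout. Reads of a gene and its near-identical copy can be divided between them by the counting, so the levels of both are uncertain.

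Changes shared by both tissues, called in each with the same direction, numbered 971 of 16930 (5.74%), with 586 lower (3.46%) and 385 higher (2.27%). They were 16.5% of the DRG calls and 31.1% of the cord calls, and the count was 451 without A1, A3 and C1 and 576 without A2 and A4. Of the 971, 134 were also called in the tissue difference, being changed in both tissues but to different extents. The average effect over both tissues was called for 5419 genes (27.6%). Both tissues may come from the same animals, which the labels did not state. In SNI libraries 959 of the 971 had the same sign in DRG and 490 were called with it, where 7.86% of all genes were called. In SNI cord 957 had the same sign and 282 were called with it, against 2.94% of all genes. Shares with the same sign over all genes were not computed for either tissue.

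Only 145 of the 971 were past 1 on the log2 scale in both tissues, 96 lower and 49 higher, and 103 of these had names of predicted genes, pseudogenes or clones. Vcp-rs, a processed copy of Vcp on chromosome X, stood at 278, 241, 318, 319 and 219 CPM in wild-type DRG and at 0, 0.134, 0, 0.850 and 0.270 in knockout DRG. Its cord levels were 204, 214, 185, 197 and 194 CPM in wild type and 0.377, 0, 0, 3.63 and 0 in knockout. It was thus almost unread in the knockout libraries of both tissues. Reads of this copy and of Vcp cannot be assigned with certainty.

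Cwc22, a splicing factor gene (chromosome 2, 77881159 to 77946375), rose in both tissues by 2.80 ± 0.39 and 3.18 ± 0.46. It stood at 144, 49.7, 182, 228 and 64.5 CPM in wild-type DRG and at 840, 1020, 934, 943 and 899 in knockout DRG. Cord libraries held 128, 51.8, 175, 255 and 55.8 CPM in wild type and 1280, 1170, 1150, 1210 and 1180 in knockout. The wild-type libraries varied over a wide range that was alike in both tissues by library number, and the tissue difference was not called (-0.37 ± 0.59, adjusted p = 0.704). Predicted genes on the same chromosome, Gm13691, Gm13693, Gm13694 and Gm13696, rose with it in both tissues.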

How the data were processed

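RNA was sequenced from 20 naive libraries (5 per group) and 16 SNI libraries (4 per group), prepared as stranded mRNA libraries per the labels' protocols. The authors deposited expected counts per gene, which need not be whole (15.9% of naive values were not). The submitters' processing notes name FastQC 0.11.5, HISAT2, RSEM and GRCm38. The strand setting of the counting was not given in the sources used here, so overlapping and antisense genes are uncertain, as are genes with near-identical copies. A second deposited table holds a normalised signal that the authors made by multiplying each library's counts by 1 factor; it entered no test. In library E1, 9150 values had decimal commas and 1 cell held a letter in place of a digit and was restored to 1780.86.

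Expected counts were rounded, filtered by filterByExpr and scaled by TMM, and tested by edgeR 4.0.16 (quasi-likelihood F test, R 4.3.3) with Benjamini-Hochberg adjustment over all genes tested. The tissue difference and the average effect came from a fit of all 20 naive libraries, the effects in DRG and cord from fits of each tissue alone, and the SNI values from 16 libraries. A gene was called below an adjusted p of 0.05, and shared when called in both tissues with the same direction. CPM used TMM-scaled library sizes. The code was tested on simulated data. DESeq2 1.42.0, limma 3.58.1, other filters, left-out libraries and a haemoglobin covariate were the alternatives.

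The members of the 38 gene lists were chosen with earlier results of these data known. Genes were named by a rule: the largest called tissue differences in each direction, the largest shared changes, the opposite changes with the lowest adjusted p, and up to 3 called genes per list. Many of the genes given library by library, the genes called in both naive and SNI libraries, and those named for their sequence or known role were chosen after their values were seen. The libraries A1, A3 and C1 were left out in an alternative added after seeing the data. Promoter letters came from RefSeq (GRCm38.p6). Some results are not reported here.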

Additional observations from a re-analysis of the deposited data

Results flagged for a closer look

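The knockout effect differed between DRG and cord for 4266 genes by the test of the difference itself (edgeR). The tissue differences on the log2 scale were 0.69 for Syn1, 0.48 for Snap25, 0.66 for Sv2a, 0.51 for Sv2c, 1.22 for Scn2b and -0.65 for Csf1r. They were 2.15 for Myo5b, 1.56 for Slc15a2, -2.04 for Slc14a1, -3.74 for Tmem45b, 0.85 for Aqp4, 0.70 for Chrm2 and -0.80 for Cd34. Among genes with changes in cord or in both tissues they were 3.99 for Fam227b, -2.04 for Cd300lf, 1.39 for Dnah7a, 0.85 for Matn2, 0.51 for Sri, -1.06 for Oprm1, -0.84 for Itpr2 and 0.65 for Elovl7. The remaining ones were 1.00 for Got2, 2.56 for Got2-ps1, 0.50 for Insig1, -0.70 for Fabp7 and 1.22 for the linker histone gene Hist1h1e. The value for Got2-ps1 rests on wild-type groups at or near 0 and is no estimate of size. Those for Fam227b and Tmem45b rest on few reads in DRG and in cord, respectively.

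In 10 of 120 groups of 5 libraries, 1 library lay far from the others in CPM (its gap to the nearest passed 0.71 of the group's range), which chance gives in about 1 group in 20. In wild-type cord these were A7 for Syn1 (354) and Snap25 (3190), A5 for Csf1r (87.4) and Sv2c (429), and C5 for Sri (55.8). In knockout cord B8 stood out for Myo5b (19.3) and Vcp-rs (3.63). In wild-type DRG these were A3 for Fam227b (0.528), B3 for Got2-ps1 (0.0861) and C1 for Fabp7 (889).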

How the results depend on the processing

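The count of 4266 called tissue differences was 1380 without A1, A3 and C1 and 33 with the haemoglobin covariate. The other counts without A1, A3 and C1 were 3226 for the average effect, 1419 for DRG and 451 for shared genes, and with the covariate 767, 314 and 116, and 396 for cord. The DRG groups do not overlap in haemoglobin level, so the covariate and genotype cannot be told apart there. Without A2 and A4, DRG gave 2990 calls and shared genes 576. The contrast of the fit of 20 libraries gave 1870 for cord, and an adjusted p under 0.10 gave 1549 shared genes. Leaving out 1 library at a time gave 3185 to 5342 tissue differences, 4699 to 6367 average effects, 3711 to 6853 DRG calls, 1946 to 3437 cord calls and 704 to 1038 shared genes. The other alternatives, DESeq2, no filter, TMM within tissue, voom weights and the fits without A2 and A4 not given above, stayed within 1.5 times, with 3116 to 4936 tissue differences. All 4266 kept their sign in each alternative except the covariate (3933). These fits reuse libraries of the main fit, so a kept sign is no separate support. With the covariate 4 named genes changed sign: Mmp9 (0.026), Ebf2 (0.114), Grin1 (-0.003) and Ecel1 (-0.118). The cause was not tested.

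Library numbers were not stated to mark animals. Deviations of same-numbered DRG and cord libraries correlated at 0.059 to 0.36 (median 0.216), with 9 of 10 pairs over 0.1, against a median of -0.06 for other numbers, and 9 DRG libraries correlated best with their own number. This hints at pairing, but 1 pair was below 0.1 and the fits were not blocked. The DRG and cord fits may thus share animals, so a change called in both tissues was not necessarily seen in separate sets of mice. The replicate block gave 4172 tissue differences and 4860 average effects. Depth limits genes under 1 CPM in 1 tissue, whose differences rest on few reads.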
